A study of Homo sapiens with 8 samples.

Results

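The genes described are 6 kallikrein-related peptidases, KLK5, KLK6, KLK7, KLK8, KLK10 and KLK11, of the 57736 Ensembl genes listed for each library. They lie in 1 run of 15 kallikrein genes on chromosome 19, and they were taken by name because their levels differed widely between the untreated cells of both lines studied. That difference is therefore described below without a test. KLK5 goes against the choice: its value was at most 5 in any library.

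Kallikreins are secreted serine peptidases of the trypsin fold. They are made as inactive proenzymes, and trypsin-like members can activate others in a cascade best known from the shedding of the outer skin, where KLK5 and KLK7 act on the proteins that join corneocytes. KLK7 cleaves after bulky hydrophobic residues like chymotrypsin, and KLK5, KLK6, KLK8 and KLK11 cleave after arginine or lysine. Several members, KLK6 and KLK10 among them, are known to be raised in colorectal tumours.

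RNA was sequenced from derivatives of LS174T, an established human colon adenocarcinoma line. Each derivative carries the Tet repressor and a vector that makes a short hairpin RNA when doxycycline is added, directed at ASCL2, a basic helix-loop-helix transcription factor of intestinal stem cells, or at the long non-coding RNA WiNTRLINC1. The 4 groups, with 2 libraries each, were ASCL2 line cells grown for 3 days without doxycycline, the same line grown for 3 days in 1 ug/ml doxycycline, and the WiNTRLINC1 line without and with that treatment. Groups and line names follow the sample titles, while the genotype label of every sample names the other target, so each line is the one titled that way. The lines come from cell clones screened for knockdown, how many is not stated, so line, clone and hairpin cannot be told apart between them. No treated cells without a hairpin are among the groups, so within a line the drug cannot be told apart from the hairpin. Nothing states that replicates were separate cultures, so p-values measure the spread between these libraries only, which may be technical.

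Values were read counts that had been scaled per library and rounded before deposit, with totals of 21524463 to 22941231 per library. ASCL2, the targeted gene of 1 line, was at 2855 and 3373 in the untreated and 532 and 586 in the treated libraries of the ASCL2 line, and at 2540 and 2034 untreated and 805 and 697 treated in the WiNTRLINC1 line, so it does not settle which label is right. It changed by -2.47 ± 0.117 and by -1.60 ± 0.117 on the log2 scale (SE, n = 2 per group, limma adjusted p = 3.93e-09 and 3.46e-07). All 8 colon epithelial markers examined passed the filter described below. Their sum ran from 192483 to 212626 untreated and 177268 to 196844 treated in the ASCL2 line, and from 132527 to 138192 untreated and 102006 to 102942 treated in the WiNTRLINC1 line, most of it KRT8 and KRT18. In the ASCL2 line 5 of the 8 fell, beside 12.7% of all tested genes. Among them were GPA33 (-1.60), CDH17 (-1.03) and CDX2 (-0.76, limma adjusted p = 9.49e-10, 9e-07 and 2.22e-05). In the WiNTRLINC1 line 3 fell and 2 rose, beside 9.03% and 9.54% of all tested genes. KRT18 fell by the most (-2.24, limma adjusted p = 6.17e-09). Of 10 squamous markers, the tissue type in which the kallikrein cascade is best known, SPRR1B and S100A7 stayed below 10 in every library, KRT14 was at 2 to 13, KRT5 at 5 to 16 and TP63 at 14 to 40. Of the 6 tested, 2 rose in each line, beside 13.9% (ASCL2) and 9.54% (WiNTRLINC1) of all tested genes. SFN rose in both (0.34 and 0.32, limma adjusted p = 0.0146 and 0.0295). KRT6A rose in the ASCL2 line, from 8 and 15 untreated to 36 and 21 treated (1.25, limma adjusted p = 0.0448). KRT13 rose in the WiNTRLINC1 line (1.72, limma adjusted p = 0.00468). The calls of colon and squamous markers were not rerun with the alternative settings described below. The summed squamous list, most of it SFN, ran from 4836 to 5918 and 6338 to 7181 in the untreated and treated ASCL2 line and from 3819 to 3840 and 4600 to 4971 in the WiNTRLINC1 line. The part of either list in the kallikrein values was not tested. Summed fibroblast markers reached at most 266, immune markers 106 and endothelial markers 35.

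Promoters are shown because ASCL2 belongs to a factor family that binds CANNTG. RefSeq windows (GRCh38.p14) were found for 5 of the 6 genes, all but KLK8, and those of the 4 tested genes among them are printed. The letters are the 250 bases before the most upstream listed start, 5′ to 3′ on the coding strand, which is the minus strand for all of them: KLK6 at chr19:50969592-50969841, KLK7 at chr19:50984065-50984314, KLK10 at chr19:51019862-51020111 and KLK11 at chr19:51027647-51027896. Capitals mark matches, on either strand, to CANNTG, to the AP-1 motif TGANTCA or to the TCF/LEF core CTTTGA.
KLK6: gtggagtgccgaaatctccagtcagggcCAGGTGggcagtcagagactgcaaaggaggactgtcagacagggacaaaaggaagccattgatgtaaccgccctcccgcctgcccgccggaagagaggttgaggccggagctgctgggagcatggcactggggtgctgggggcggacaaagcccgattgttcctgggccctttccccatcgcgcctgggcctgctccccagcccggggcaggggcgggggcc
KLK7: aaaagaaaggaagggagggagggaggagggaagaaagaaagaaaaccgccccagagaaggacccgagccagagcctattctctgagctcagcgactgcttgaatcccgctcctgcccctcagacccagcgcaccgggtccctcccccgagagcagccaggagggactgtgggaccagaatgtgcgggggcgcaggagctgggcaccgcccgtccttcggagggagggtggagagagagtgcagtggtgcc
KLK10: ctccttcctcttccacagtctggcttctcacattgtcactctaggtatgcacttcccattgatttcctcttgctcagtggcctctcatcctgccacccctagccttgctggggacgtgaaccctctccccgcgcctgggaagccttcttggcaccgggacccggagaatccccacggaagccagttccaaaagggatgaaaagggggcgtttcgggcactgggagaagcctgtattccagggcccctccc
KLK11: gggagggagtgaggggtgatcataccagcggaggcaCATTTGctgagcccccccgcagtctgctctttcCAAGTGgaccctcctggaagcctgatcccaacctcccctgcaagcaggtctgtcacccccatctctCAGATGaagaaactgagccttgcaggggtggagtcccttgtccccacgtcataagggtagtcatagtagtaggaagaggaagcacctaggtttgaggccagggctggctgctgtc
Only CANNTG was matched in these windows. KLK6 held CAGGTG with its first base at -222 from the start, and KLK11 held CATTTG at -214, CAAGTG at -181 and CAGATG at -115. KLK7, KLK10 and KLK5 (window not shown) held none of the 3 motifs. Of 34943 RefSeq promoters of the same length, 61.8% held CANNTG, 6.59% TGANTCA and 11.2% CTTTGA. GC content was 66.8% for KLK6, 64% for KLK7, 59.2% for KLK10 and 58.4% for KLK11, beside a median of 58% over all promoters.

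KLK6 showed the widest gap between the lines. This trypsin-like peptidase was at 42 and 35 in the untreated ASCL2 line and at 4172 and 3936 in the untreated WiNTRLINC1 line. With doxycycline it was at 40 and 39 in the ASCL2 line and at 4152 and 4233 in the WiNTRLINC1 line. Every WiNTRLINC1 library was thus far above every ASCL2 library, and treated and untreated libraries overlapped within each line. Among the 5 members that were detected in every library, KLK6 was the lowest per length in one untreated line and the highest in the other. Per kilobase of exon its mean level was 19.5 in the untreated ASCL2 line, below KLK7 at 36.6, KLK8 at 62.2, KLK11 at 381 and KLK10 at 620. In the untreated WiNTRLINC1 line KLK6 was at 2052 per kilobase, above KLK10 at 864, KLK11 at 702, KLK8 at 273 and KLK7 at 196. These lengths take the exons of all annotated transcripts. With the basic transcripts only, a setting added after seeing the data, KLK6 kept both places, but KLK11 stood above KLK10, at 736 and 712 in the ASCL2 line and 1355 and 991 in the WiNTRLINC1 line.

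KLK7, the chymotrypsin-like enzyme that cleaves corneodesmosin in skin, was at 75 and 103 in the untreated ASCL2 line and at 331 and 372 in the treated one. It was at 524 and 431 untreated and at 446 and 408 treated in the WiNTRLINC1 line. The untreated ASCL2 libraries were the low ones. The treated ASCL2 libraries lay above them and below all 4 WiNTRLINC1 libraries, whose treated and untreated values overlapped.

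KLK8, a trypsin-like peptidase known from hippocampus and epidermis, was at 108 and 124 in the untreated and at 132 and 179 in the treated ASCL2 line. The WiNTRLINC1 line had 495 and 522 untreated and 471 and 527 treated. The lines were apart in every library, and the treated and untreated WiNTRLINC1 libraries overlapped.

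KLK10, first described as a gene of normal breast epithelium that is lost in breast cancer cells, was at 2602 and 2177 untreated and 2672 and 2534 treated in the ASCL2 line, which overlapped. In the WiNTRLINC1 line it was at 3806 and 2850 untreated and at 6060 and 6485 treated. The treated WiNTRLINC1 libraries stood above all others, and the untreated ones of that line were farther apart than any other pair of KLK10 replicates.

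KLK11, a trypsin-like peptidase of brain and prostate, was at 1158 and 1214 in the untreated ASCL2 line and lower, at 693 and 863, in the treated one. It was at 2345 and 2023 untreated and 2574 and 2594 treated in the WiNTRLINC1 line. No pair of groups overlapped, and the order from low to high was treated ASCL2, untreated ASCL2, untreated WiNTRLINC1 and treated WiNTRLINC1. KLK5, the trypsin-like activator of the skin cascade, was at 0 and 4, 2 and 0, 2 and 3, and 5 and 3 in the untreated and treated ASCL2 and untreated and treated WiNTRLINC1 libraries. These values overlap between neighbouring groups and are too low for a comparison.

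**Figure D1:**
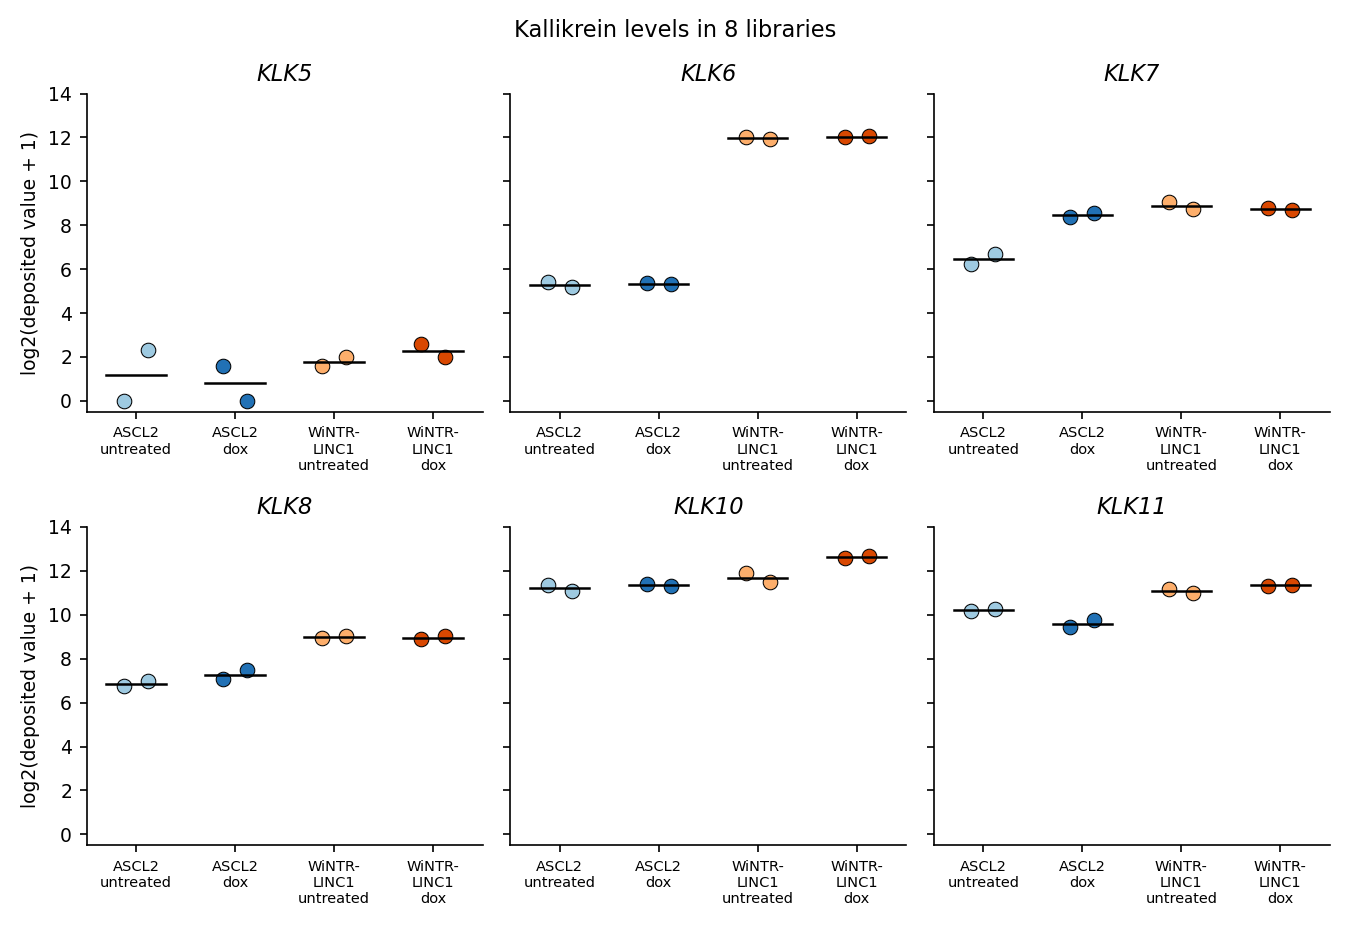
Level of the 6 kallikreins in each library as log2(deposited value + 1), with 1 point per library and a line at the mean of the 2 libraries of a group. KLK6 sits between 35 and 42 in the ASCL2 line and between 3936 and 4233 in the WiNTRLINC1 line with or without doxycycline (dox), while KLK7 is lowest in the untreated ASCL2 line.

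In the untreated lines, on which the choice of genes rests, the WiNTRLINC1 line was higher than the ASCL2 line 103-fold for KLK6, 5.36-fold for KLK7, 4.36-fold for KLK8, 1.84-fold for KLK11 and 1.38-fold for KLK10. The groups did not overlap for these 5 genes. Over all 22100 genes tested the groups did not overlap for 75.7%, the WiNTRLINC1 line was higher without overlap for 35.7%, and 55.2% passed the test described next. Nothing is read from the share of the members because they were chosen on it. KLK5 averaged 2 and 2.5.

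The doxycycline-treated libraries were not used in that choice, and the lines were compared in them by a test. They are the same 2 lines whose untreated difference picked the genes, so a difference between the treated lines is not independent of the choice. Tests were made with limma on log2(value + 1) for the 22100 genes that reached 10 in 2 or more libraries, and a gene was called where its p, adjusted by Benjamini and Hochberg's method, was under 0.05. The 5 members other than KLK5 were tested, and each reached 10 in all 8 libraries. KLK6 was 104-fold higher in the treated WiNTRLINC1 line than in the treated ASCL2 line, a log2 difference of 6.69 ± 0.117 (SE, n = 2 per group, limma adjusted p = 1.3e-14). KLK11 was 3.34-fold higher (1.74 ± 0.104, limma adjusted p = 2.21e-09), KLK8 3.23-fold (1.69 ± 0.156, limma adjusted p = 2.25e-07) and KLK10 2.41-fold (1.27 ± 0.116, limma adjusted p = 2.01e-07). KLK7 did not pass, at 0.28 ± 0.160 with a 95% interval from -0.06 to 0.62 (limma adjusted p = 0.143). It passed when values were rescaled to equal upper quartiles (0.43, limma adjusted p = 0.0324) and after quantile normalization (0.41, limma adjusted p = 0.0419). The upper-quartile rescaling moved the median of all tested genes in this comparison from -0.06 to 0.09.

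So 4 of 5 tested members were called, all 4 higher in the WiNTRLINC1 line. The lines differed widely as a whole: 61.8% of all tested genes were called in this comparison, 29.0% as higher and 32.8% as lower. The groups did not overlap for any of the 5, all higher in the WiNTRLINC1 line, beside 79.8% of all tested genes that did not overlap and 37.8% that did so in this direction. The median of the 5 members was 1.69 on the log2 scale beside -0.06 over all tested genes. Since the genes were picked on these lines, nothing is read from that share or median.

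**Figure D2:**
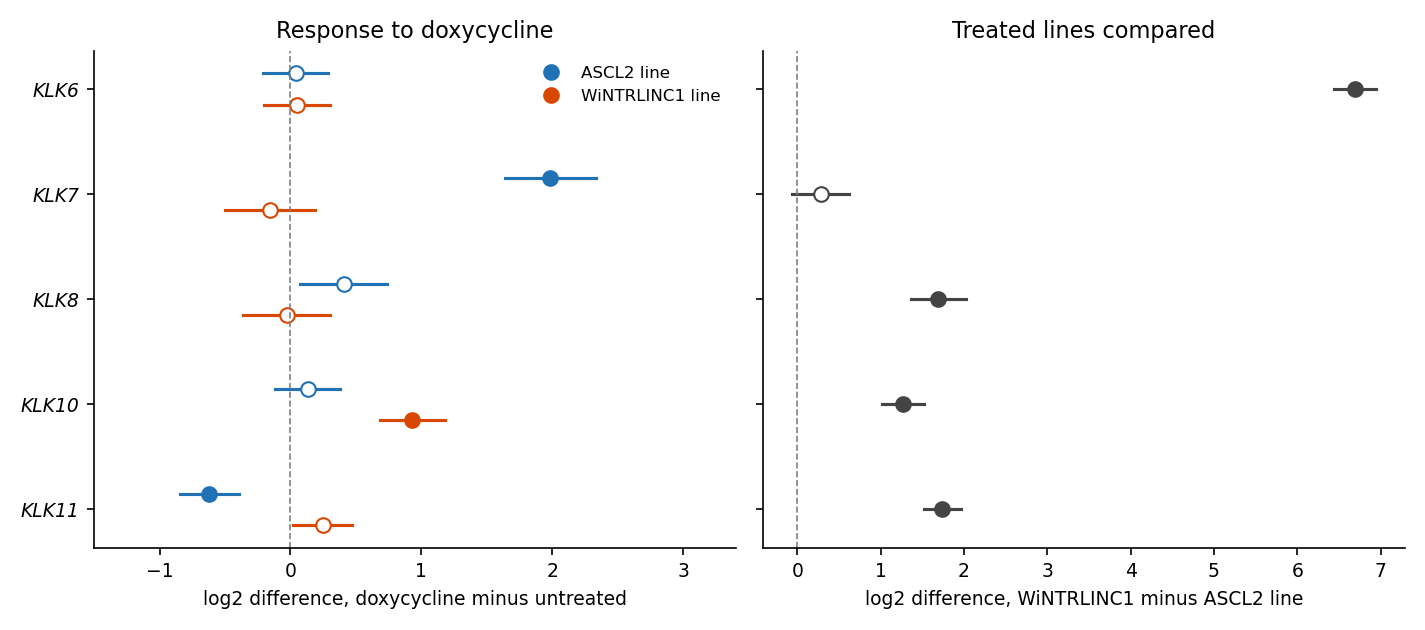
Log2 differences of the 5 tested members with 95% intervals; filled points passed limma at an adjusted p under 0.05 and open points did not. The left panel gives doxycycline minus untreated in each line, and the right panel the treated WiNTRLINC1 line minus the treated ASCL2 line, where KLK6 lies at 6.69 and KLK7 at 0.28.

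Within the ASCL2 line, KLK7 rose and KLK11 fell with doxycycline. The comparisons within a line share their untreated libraries with the choice of genes, which favours low untreated values in the ASCL2 line and high ones in the WiNTRLINC1 line. KLK7 rose 3.96-fold, by 1.98 ± 0.160 on the log2 scale (SE, n = 2 per group, limma adjusted p = 5.85e-07), and KLK11 fell by 0.62 ± 0.104 on that scale (limma adjusted p = 0.000501). KLK8 had a difference of 0.41 ± 0.156 that did not pass (limma adjusted p = 0.0686), but passed when the first treated library was left out (0.62, limma adjusted p = 0.0206). KLK6 differed by 0.04 with a 95% interval from -0.21 to 0.29 (limma adjusted p = 0.833), and KLK10 by 0.13 with an interval from -0.12 to 0.38 (limma adjusted p = 0.462). Thus 1 of 5 tested members rose and 1 fell, where 13.9% of all tested genes rose, 12.7% fell and 26.6% were called in all. The groups did not overlap for KLK7, KLK8 and KLK11, beside 60.6% of all tested genes (30.8% higher with doxycycline and 29.8% lower).

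Within the WiNTRLINC1 line, KLK10 rose 1.9-fold with doxycycline, by 0.93 ± 0.116 on the log2 scale (SE, n = 2 per group, limma adjusted p = 4.84e-05). The other 4 tested members did not pass. KLK11 differed by 0.25 with a 95% interval from 0.02 to 0.47 and no overlap between groups (limma adjusted p = 0.122). The difference was 0.05 for KLK6 (interval -0.20 to 0.30, limma adjusted p = 0.837), -0.16 for KLK7 (-0.50 to 0.19, limma adjusted p = 0.581) and -0.03 for KLK8 (-0.36 to 0.30, limma adjusted p = 0.932). Of all tested genes 18.6% were called in this line, 9.54% as higher and 9.03% as lower. The groups did not overlap for KLK10 and KLK11, both higher with doxycycline, beside 54.8% of all tested genes and 28.2% in this direction.

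The responses of the lines to doxycycline differed for 3 of the 5 tested members, beside 15.0% of all tested genes, of which those with a higher value in the WiNTRLINC1 line made up 7.39% of all tested and those with a lower one 7.60%. This difference contains the contrast on which the genes were chosen. Taken as the WiNTRLINC1 line minus the ASCL2 line, it was -2.14 ± 0.227 on the log2 scale for KLK7 (limma adjusted p = 1.66e-05), 0.86 ± 0.147 for KLK11 (limma adjusted p = 0.000934) and 0.80 ± 0.164 for KLK10 (limma adjusted p = 0.0037). KLK8 at -0.44 ± 0.220 (limma adjusted p = 0.221) and KLK6 at 0.01 ± 0.165 (limma adjusted p = 0.986) did not pass. Without the mean-variance trend of the fit only the KLK7 difference passed (limma adjusted p = 0.0185), and those of KLK11 and KLK10 did not (limma adjusted p = 0.0654 and 0.118). The KLK10 difference was also lost without the filter on low values (limma adjusted p = 0.0961).

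Of the other 9 kallikreins of the run 7 passed the filter and were tested. KLK9, at 0 or 1, and KLK13, at 1 to 6, were below the filter. KLK1, KLK4 and KLK14 reached 10 in all 8 libraries. KLK2, KLK3, KLK12 and KLK15 did so in 2, 6, 5 and 6 libraries, so that passing the filter depended in part on the groups where they were high, and the counts that follow are only a description.

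KLK4, known as the protease of the enamel matrix, was at 113 and 99 untreated and at 11 and 17 treated in the ASCL2 line, and at 58 and 58 untreated and 23 and 31 treated in the WiNTRLINC1 line. It fell in both lines, with log2 changes of -2.86 ± 0.303 and -1.09 ± 0.303 (limma adjusted p = 7.55e-06 and 0.0203). KLK3, which encodes prostate-specific antigen, was at 33 and 45 untreated and 7 and 5 treated in the ASCL2 line, and at 93 and 118 untreated and 19 and 18 treated in the WiNTRLINC1 line. It fell in both lines too, at -2.51 ± 0.340 and -2.44 ± 0.340 (limma adjusted p = 7.41e-05 and 0.000136). KLK3 and KLK2 are close copies that can share reads and are uncertain for that reason.

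KLK15 was at 36 and 18 untreated and 3 and 6 treated in the ASCL2 line, and at 83 and 77 untreated and 30 and 29 treated in the WiNTRLINC1 line, with log2 changes of -2.33 ± 0.405 and -1.41 ± 0.405 (limma adjusted p = 0.000636 and 0.0244). KLK1, the tissue kallikrein that releases kinins from kininogen, was at 895 and 861 untreated and 441 and 498 treated in the ASCL2 line, where it fell by 0.90 ± 0.105 (limma adjusted p = 1.9e-05). In the WiNTRLINC1 line it was at 467 and 478 untreated and 374 and 408 treated, which did not pass (-0.27 ± 0.105, limma adjusted p = 0.0888). KLK12 was at 12 and 9 untreated and 1 and 0 treated in the ASCL2 line and passed there (limma adjusted p = 0.000385), and was at 62 and 42 untreated and 21 and 26 treated in the WiNTRLINC1 line, which did not pass (limma adjusted p = 0.149). KLK14 was at 29 and 25 untreated and 13 and 12 treated in the ASCL2 line (-1.05 ± 0.316, limma adjusted p = 0.0231), and at 58 and 41 untreated and 73 and 56 treated in the WiNTRLINC1 line, which overlapped. KLK2 was at 26 and 28 untreated and 6 and 7 treated in the WiNTRLINC1 line (limma adjusted p = 0.0133), and at 6 and 9 untreated and 4 and 7 treated in the ASCL2 line. It passed the filter through those 2 untreated WiNTRLINC1 libraries, and the responses of the lines were not shown to differ (-1.5 ± 0.693, limma adjusted p = 0.177).

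Counted as they stand, 6 of 7 tested genes of this group fell in the ASCL2 line and 4 of 7 in the WiNTRLINC1 line, where 12.7% and 9.03% of all tested genes fell, and none rose in either line, also at an unadjusted p under 0.05. Their median was -2.33 and -1.09, beside 0.13 and 0.05 for the 5 tested members. KLK2 passed the filter only through the group where it was high, and KLK3, KLK12 and KLK15 in part. Nothing is therefore read from these counts or medians. Of the genes that reached 10 in all 8 libraries, KLK1, KLK4 and KLK14 all fell in the ASCL2 line. Only KLK4 did so in the WiNTRLINC1 line. Some calls of the 7 genes did not survive the loss of a library, with changes of about the same size. In the WiNTRLINC1 line KLK15 and KLK2 did not pass whichever of the 4 libraries of that line was left out, at -1.46 to -1.36 and -2.00 to -1.81 on the log2 scale (limma adjusted p of at most 0.136 and 0.0809). KLK4 did not pass there without the first or the second untreated library or the first treated one, at -1.09, -1.09 and -0.88 (limma adjusted p = 0.0948, 0.091 and 0.136). In the ASCL2 line KLK14 did not pass whichever of the 4 libraries was left out, at -1.15 to -0.95 (limma adjusted p = 0.11 and 0.053 without the untreated ones, 0.0631 and 0.0949 without the treated ones). Between the treated lines 5 of the 7 were higher in the WiNTRLINC1 line and KLK1 was lower. Of all tested genes 29.0% were called higher and 32.8% lower in that comparison. The call of KLK1 there was lost without the second treated ASCL2 library or the first treated WiNTRLINC1 library (limma adjusted p = 0.274 and 0.21). It was also lost with equal upper quartiles (-0.12, limma adjusted p = 0.335), quantile normalization (-0.15, limma adjusted p = 0.215) and equal totals (limma adjusted p = 0.0575), without the filter or the trend (limma adjusted p = 0.0648 and 0.0691) and with the treated groups fitted alone (limma adjusted p = 0.0707). The call of KLK4 was lost without the first treated ASCL2 library or the second treated WiNTRLINC1 library (limma adjusted p = 0.133 and 0.117), and with the treated groups fitted alone (limma adjusted p = 0.07).

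**Figure D3:**
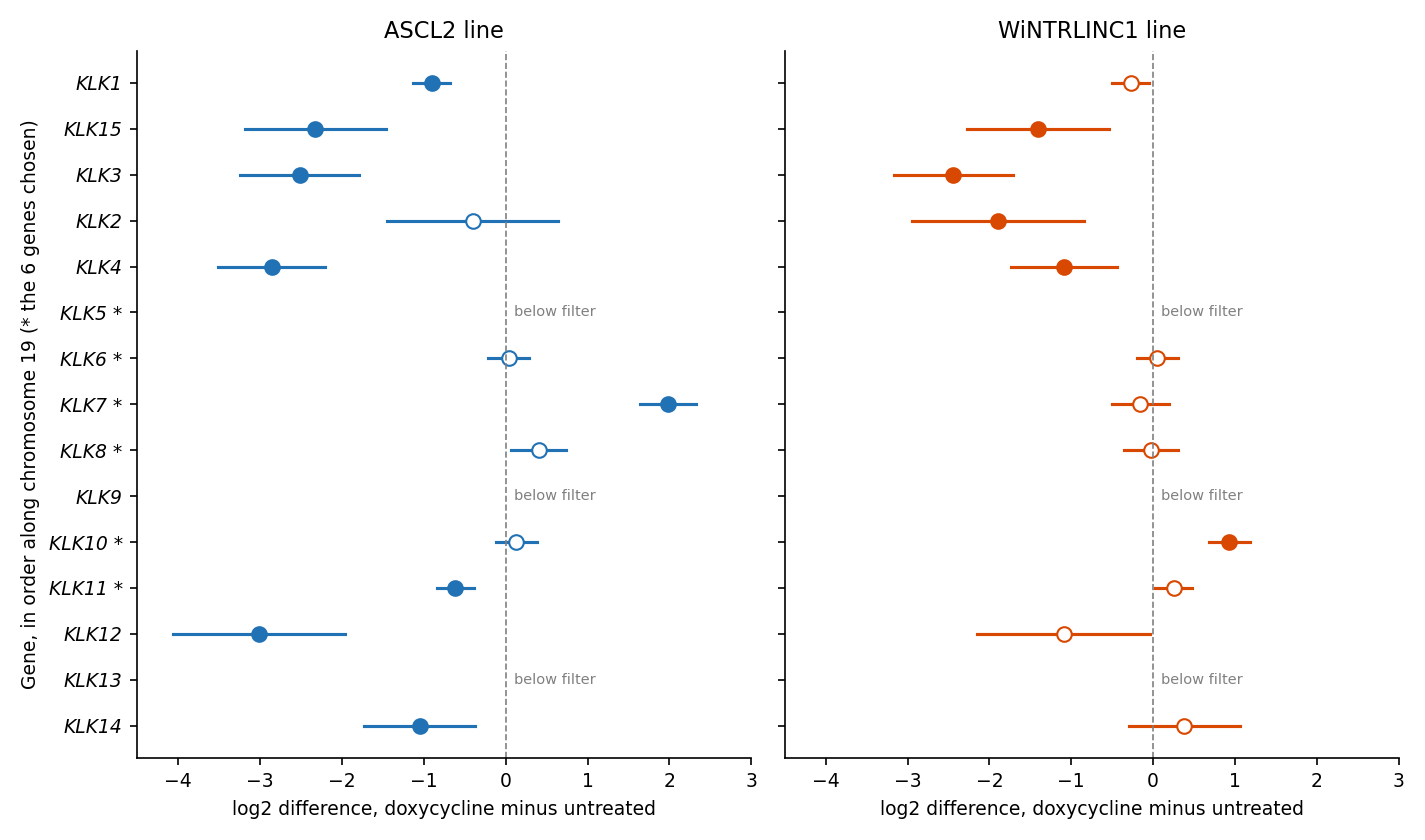
Log2 difference between doxycycline-treated and untreated cells for the 15 kallikreins in their order along chromosome 19, with 95% intervals; filled points passed limma at an adjusted p under 0.05. Asterisks mark the 6 genes chosen. KLK1 to KLK4 lie to the left of 0 in both lines, KLK7 stands at 1.98 in the ASCL2 line and KLK10 at 0.93 in the WiNTRLINC1 line.

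The genes on either side of the run were examined for the same difference between lines. Of the 10 protein-coding genes on each side in RefSeq's order (GRCh38.p14), 9 of 20 passed the filter. Between the treated lines 1 was higher in the WiNTRLINC1 line and 4 were lower, beside 29.0% and 32.8% of all tested genes. The higher one was CD33, a sialic acid-binding receptor of myeloid cells, at 6 and 7 in the treated ASCL2 line and 39 and 51 in the treated WiNTRLINC1 line (2.61 ± 0.382, limma adjusted p = 2.88e-05). The lower ones were CLDND2 at -2.71 ± 0.373 (limma adjusted p = 1.54e-05), the secreted growth factor CLEC11A at -2.33 ± 0.200 (limma adjusted p = 1.03e-07), C19orf81 at -1.5 ± 0.609 (limma adjusted p = 0.044) and the deubiquitinase JOSD2 at -1.31 ± 0.108 (limma adjusted p = 7.02e-08). The C19orf81 call was lost without any 1 of the 4 treated libraries (limma adjusted p of at most 0.203). CD33 reached 10 only in the WiNTRLINC1 line and C19orf81 only in the ASCL2 line. Each thus passed the filter through the line where it was high, so these calls are only a description. CTU1, next to KLK14, did not pass (0.32 ± 0.151, limma adjusted p = 0.082). Within the ASCL2 line 1 of the 9 rose and 1 fell, beside 13.9% and 12.7% of all tested genes. The rise, of JOSD2, was lost without any 1 library of that line, at 0.30 to 0.41 on the log2 scale. The fall, of ETFB, was lost without the filter or the trend (limma adjusted p = 0.108 and 0.118) and with that line fitted alone (limma adjusted p = 0.0713). It was also lost without the first untreated or the first treated library of that line, at -0.24 and -0.33 on the log2 scale. Doxycycline gave 0 calls by limma among the 9 in the WiNTRLINC1 line, and 0 also where the unadjusted p is read at 0.05. Of all tested genes 18.6% were called there by limma.

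**Figure D4:**
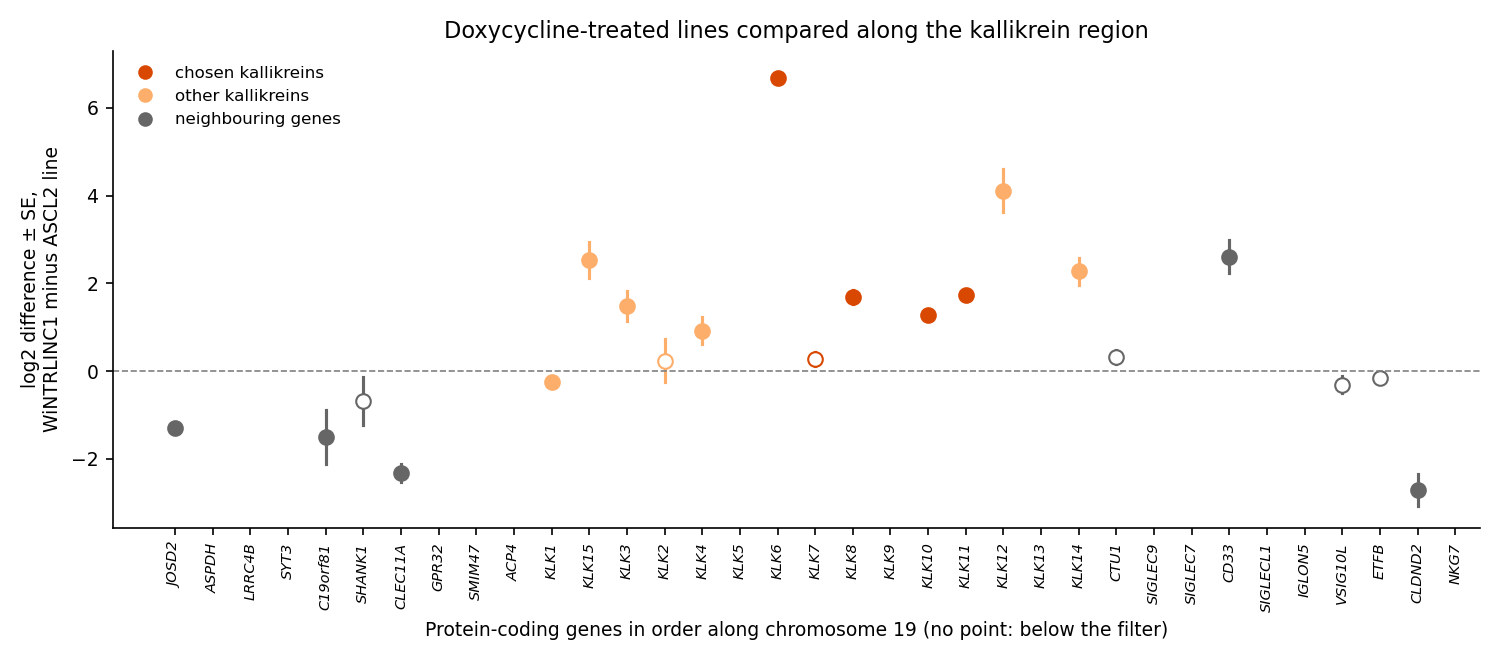
Log2 difference ± SE between the doxycycline-treated WiNTRLINC1 and ASCL2 lines (n = 2 each) for the kallikreins and the 10 protein-coding genes on each side, in chromosomal order. Filled points passed limma at an adjusted p under 0.05, and genes below the filter have no point. KLK6 stands at 6.69, with neighbouring genes on both sides between -2.71 and 2.61.

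Kallikrein activity is held in check by inhibitors and acts on junction proteins and receptors, so lists of these were described. Of 11 protease inhibitors 7 were tested. SPINT1 and SPINT2, membrane-bound inhibitors of trypsin-like proteases, moved in opposite directions in the ASCL2 line: SPINT1 rose by 0.61 ± 0.0751 on the log2 scale and SPINT2 fell by 1.21 ± 0.0750 (limma adjusted p = 3.09e-05 and 4.71e-08). They were the only 2 called there, beside 26.6% of all tested genes. No inhibitor was called in the WiNTRLINC1 line (0 by limma, and 2 where the unadjusted p is read at 0.05). By limma 18.6% of all tested genes were called in that line. SPINK5, the main inhibitor of the skin cascade, was at 3 to 13 over the 8 libraries. Between the treated lines 4 inhibitors were higher in the WiNTRLINC1 line and 1 was lower, beside 29.0% and 32.8% of all tested genes. The lower one was SPINT1, at -1.17 ± 0.0751 (limma adjusted p = 4.65e-09). The higher ones were SPINT2 at 0.82 ± 0.0750, SERPINB6 at 0.55 ± 0.0841 and the secreted PI3 and SLPI at 2.05 ± 0.468 and 1.58 ± 0.175 (limma adjusted p = 1.96e-07, 4.63e-05, 0.00145 and 1.58e-06). PI3 was at 10 and 5 untreated and 6 and 6 treated in the ASCL2 line. It passed the filter through the WiNTRLINC1 line, where it was high, so its call is only a description.

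Of 14 substrates and receptors 12 were tested. In the ASCL2 line 3 rose and 1 fell, beside 13.9% and 12.7% of all tested genes. The urokinase receptor PLAUR rose by 1.10 ± 0.138 on the log2 scale, the desmosomal cadherins DSC2 and DSG2 by 0.70 ± 0.0849 and 0.41 ± 0.0666, and IGFBP3, which binds insulin-like growth factors, fell by 2.78 ± 0.133 (limma adjusted p = 3.6e-05, 2.88e-05, 0.000381 and 4.11e-09). Of the same list 2 rose and 2 fell in the WiNTRLINC1 line, beside 9.54% and 9.03% of all tested genes. PLAUR was at 0.94 ± 0.138 and IGFBP3 at -1.05 ± 0.133 (limma adjusted p = 0.000208 and 5.57e-05). The other rise, of DSC2, was lost without any 1 library of that line (limma adjusted p of at most 0.238), and the other fall, of CDH1, without the first untreated or the second treated one (limma adjusted p = 0.0609 and 0.0565). F2RL1, the protease-activated receptor that trypsin-like kallikreins can cleave, was at 1958 to 3323 over the 8 libraries and did not pass in either line (0.17 ± 0.0740 and 0.20 ± 0.0740, limma adjusted p = 0.101 and 0.072). DSG1 and the KLK7 substrate CDSN stayed at 3 to 13 and 14 to 25.

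Of 14 trypsin-fold proteases outside the kallikrein run 12 were tested. In the ASCL2 line 4 rose and 3 fell, beside 13.9% and 12.7% of all tested genes. PRSS22 rose by 1.47 ± 0.155 on the log2 scale, PRSS23 by 0.84 ± 0.107 and PRSS8, or prostasin, by 0.66 ± 0.0978, while the membrane protease TMPRSS2 fell by 1.02 ± 0.132 (limma adjusted p = 7.44e-06, 4.57e-05, 0.000162 and 5.03e-05). For the WiNTRLINC1 line the counts were 4 up and 2 down, beside 9.54% and 9.03% of all tested genes. Among those up was PLAT, the tissue plasminogen activator, at 1.74 ± 0.343 (limma adjusted p = 0.00232). PLAT kept its call in every alternative run, while PRSS3, PRSS12 and PRSS22 lost theirs without the second untreated WiNTRLINC1 library (limma adjusted p = 0.106, 0.332 and 0.174) or without the filter (limma adjusted p = 0.125, 0.111 and 0.111). The fall of F7 was lost without any 1 library of that line, at -1.60 to -1.29 on the log2 scale. That of ST14 was lost without the first untreated library of that line, at -0.16, and without its first or second treated one, at -0.29 and -0.21. Leaving out either treated ASCL2 library also lost the ST14 call, at -0.25. The ST14 fall did not pass without the filter or the trend (limma adjusted p = 0.18 and 0.224). It was also lost with equal upper quartiles, a pseudocount of 0.5 or that line fitted alone (limma adjusted p = 0.0571, 0.0509 and 0.102). In the ASCL2 line the fall of PRSS12 was lost without any 1 library of that line (limma adjusted p of at most 0.184) and the rise of PRSS3 without the trend (limma adjusted p = 0.0592). The medians of the inhibitor, substrate and protease lists were -0.01, 0.03 and 0.15 in the ASCL2 line and 0.19, -0.11 and 0.40 in the WiNTRLINC1 line, beside 0.01 over all tested genes in each.

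Genes outside the family with the profile most like the mean of the 5 tested members were found by root mean square distance over the 8 libraries, on log2 values centred on each gene's own mean. The 6 nearest were the non-coding LINC02197 (0.139), LENG8 (0.148), the non-coding PURPL (0.164), the growth factor EGF (0.174), the copine CPNE7 (0.191) and the pseudogene NSUN5P2 (0.201). EGF was at 101 to 140 in the 4 ASCL2 libraries and 479 to 562 in the 4 WiNTRLINC1 libraries, and LENG8 at 1340 to 1804 and 8507 to 9064. LINC02197 was at 4 to 6 in the ASCL2 libraries and 26 to 36 in the WiNTRLINC1 libraries. It was thus low in the ASCL2 line and passed the filter only through the line where it was high. The members themselves lay farther from their own mean than these genes, from 0.292 for KLK8 to 2.14 for KLK6. The libraries share the wide difference between the lines, so these distances are a description only.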

How the data were processed

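RNA libraries of 8 samples were sequenced on the Ion Proton after Trizol isolation and RNase III fragmentation, per the labels' protocols. The tools named per the submitters' processing notes are TopHat2 2.0.9, DESeq, Cufflinks and cutadapt, and the builds GRCh37, hg19 and mm9. Which tool counted reads, and whether by strand, is not given in the sources used here. Each score deposited by the authors is a whole number per gene. In 3 libraries low whole numbers go unused (no gene of the first untreated ASCL2 library is at 3, beside 2248 at 2 and 1547 at 4), so it is a scaled, rounded read count, and limma was used, not a count test. Symbols matched 39501 of 57736 identifiers.

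R 4.3.3 with limma 3.58.1 fitted log2(value + 1) of all 8 libraries by their 4 group means, with a trend of the variance on the mean and no covariates, for genes that reached 10 in 2 or more libraries, and p-values were adjusted by Benjamini-Hochberg over all of them (4 residual and 10.5 prior degrees of freedom). The pseudocount of 1 understates changes of low genes. Both libraries of a group always differed beyond counting noise (chi-square per degree of freedom of 5.06 to 7.26). Exon lengths are the merged exons of GENCODE version 29. On that annotation antisense genes overlap the exons of KLK5, KLK6, KLK10 and KLK12, each at 3 or less in every library, and a read-through gene overlaps KLK8 and KLK9, at 0 in all. The members and lists were chosen with earlier results of these data known. The named genes were the 15 kallikreins, ASCL2, neighbours past the test between the treated lines, up to 4 genes of each list by smallest p in a comparison, and the 6 genes of nearest profile. CTU1, ETFB, SPINK5, F2RL1, DSG1, CDSN, ST14 and markers of other tissues were named outside that rule after their values were seen. Alternatives were other pseudocounts, filters and scalings, no trend, a replicate block, smaller fits and each library left out.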

Additional observations from a re-analysis of the deposited data

Results flagged for a closer look

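The doxycycline response differed between the lines, by the test of the difference itself, for 6 kallikreins and ASCL2. The kallikreins were 3 of the 5 tested members and 3 of the 7 others tested. Of all tested genes 15.0% were called, 7.39% with a higher and 7.60% with a lower value in the WiNTRLINC1 line. This difference contains the untreated contrast on which the members were chosen. Taken as the log2 response of the WiNTRLINC1 line minus that of the ASCL2 line, the difference was -2.14 for KLK7 (limma adjusted p = 1.66e-05), 0.80 for KLK10 (limma adjusted p = 0.0037), 0.86 for KLK11 (limma adjusted p = 0.000934) and 0.63 for KLK1 (limma adjusted p = 0.00933). It was 1.77 for KLK4 (limma adjusted p = 0.0108), 1.43 for KLK14 (limma adjusted p = 0.0427) and 0.87 for ASCL2 (limma adjusted p = 0.00206). KLK7 moved up in the ASCL2 line alone, KLK10 up in the WiNTRLINC1 line alone, and KLK4 fell in both, less in the WiNTRLINC1 line. The KLK14 difference did not pass without 7 of the 8 libraries, each left out in turn (limma adjusted p of up to 0.157), that of KLK1 not without the first treated ASCL2 library (limma adjusted p = 0.0544) and that of KLK4 not without the first untreated ASCL2 library (limma adjusted p = 0.0504). Without the filter on low values the differences of KLK4, KLK10, KLK14 and ASCL2 did not pass (limma adjusted p = 0.0522, 0.0961, 0.0967 and 0.0642), and without the mean-variance trend those of KLK1, KLK10, KLK11, KLK14 and ASCL2 did not (limma adjusted p = 0.0644, 0.118, 0.0654, 0.0552 and 0.0877). The KLK14 difference was also lost after quantile normalization (limma adjusted p = 0.0536).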

How the results depend on the processing

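Over 17 or 18 alternatives each, the rise of KLK7 and the fall of KLK11 in the ASCL2 line, the rise of KLK10 in the WiNTRLINC1 line, the higher KLK6, KLK8, KLK10 and KLK11 in the treated WiNTRLINC1 line and the KLK7 difference of responses kept direction and call, with highest limma adjusted p of 0.00568, 0.0393, 0.0328, 1.31e-05, 0.00071, 0.00184, 0.000334 and 0.0185. Without the trend 1 member was called in the difference of responses, against 3, and the calls over all genes were 3410 in the ASCL2 line (5884 in the reported fit), 1873 in the WiNTRLINC1 line (4104) and 1313 in the difference (3314). Without the filter the latter counts were 2395 and 1914, and with the WiNTRLINC1 line fitted alone 2713. With 1 library left out they ran from 3662 (without the second treated ASCL2 library) to 5824 in the ASCL2 line and from 2393 to 4126 in the WiNTRLINC1 line, where the second and the first treated and the first untreated library gave 2393, 2688 and 2673. The cause of these shifts was not tested. The smaller fits also hold fewer samples.

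Values near 0 that never passed changed sign. KLK6 was at -0.001 in the ASCL2 line with equal totals and from -0.087, without its second untreated library, to 0.17 with 1 library left out. The KLK6 difference of responses was -0.094 after quantile normalization and from -0.121 to 0.136 with 1 library left out (-0.035, -0.010 and -0.007 in others). KLK8 in the WiNTRLINC1 line was at 0.009 and 0.052 without the second untreated or the first treated library (from -0.11 to 0.052 over those left out). The KLK3 difference was -0.232 with a pseudocount of 5, -0.132 after quantile normalization and from -0.145 to 0.291 with 1 library left out (-0.134 and -0.097 in others). KLK2 between the treated lines ran from -0.096, without the first treated ASCL2 library, to 0.582. Of 560 values of the other kallikreins and ASCL2 over these alternatives, 51 lost and 2 gained a call, and of 1064 of the other named genes 107 lost one.

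Replicate numbers are shared between groups, but deviations of same-numbered libraries correlated only at -0.05 to 0.11, so they are not taken as pairs. A replicate block gave 13715, 5962, 4182 and 3403 calls over all genes between the treated lines, in the ASCL2 line, in the WiNTRLINC1 line and in the difference of responses, with 4, 3, 1 and 3 members called; KLK8 passed in the ASCL2 line (0.41, limma adjusted p = 0.04). Depth per gene is known only through scaled values, and 2 libraries per group limit precision; KLK5, KLK9 and KLK13 are too low to compare.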
